A study of Mus musculus with 2 samples.

Results

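Isolated long Ovol2 regions are stretches of at least 1000 bp in the region list of an Ovol2 immunoprecipitation that lie 100 kb or more from the nearest other Ovol2 region on their chromosome. The distance was measured from edge to edge. Of the 1338 Ovol2 regions, 354 met both limits. They were compared mainly with the 660 Ovol2 regions that were equally isolated but shorter than 1000 bp. The members were thus selected on their length and their gap, and both values are given as description, without a test.

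Chromatin immunoprecipitation followed by sequencing (ChIP-seq) was carried out on HC11, a mammary epithelial cell line from BALB/c mice, at passages 4 to 7 and without treatment. The medium of both samples contained insulin, EGF and serum. One antibody was made by the submitters' laboratory against mouse Ovol2, and the other was a commercial control IgG. Each antibody gave 1 library, and neither a replicate nor cells without Ovol2 were analysed here. The IgG list held 1045 regions, of which 15 lay on Y and M, where no Ovol2 region lay. These 15 could not be nearest to any Ovol2 region, but they are counted in the median IgG score used below. All coordinates are in mm9 and counted from 1.

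Ovol2 is a zinc finger transcription factor that binds DNA in a sequence-specific manner and is known mainly as a repressor of transcription. In epithelia, the mammary gland included, it is known for holding back genes of the mesenchymal programme and so for keeping cells epithelial. In ChIP-seq, the width of a called region reflects both how reads spread around a bound site and how the calling joins neighbouring reads. A control IgG recovers chromatin without a specific target, and its regions mark places where reads gather regardless of the factor.

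With 1 library per antibody, regions are not replicates. No test was run between long and short regions. The shares that were compared are given with their exact binomial (Clopper-Pearson) 95% intervals, apart from weighted shares and shares of the whole list. Shares that the rule itself sets are also given without one. The intervals cover counting error only, treat neighbouring regions as independent, and leave the variation between cultures unmeasured. The depth of the libraries is unknown, because the lists hold no read counts. Regions were not assigned to genes, and no sequence of them is shown, because no mm9 annotation or genome was used here.

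The isolated long regions had a median length of 1137.5 bp, with quartiles of 1066.25 and 1238.75 bp and a maximum of 8620 bp. Most of them were therefore only a little longer than the limit: 235 measured less than 1200 bp, 88 measured from 1200 to under 1500 bp, and 31 measured 1500 bp or more. The isolated short regions had a median of 779 bp. Long regions made up 34.9% of the isolated regions (354 of 1014) and 35.7% of the whole list. Seen from the other side, 74.2% of the 477 long regions and 76.7% of the 861 short regions were isolated, against 75.8% of the list; both limits of the rule set these shares. The 354 members covered 0.437 Mb, against 0.497 Mb for the 660 shorter regions.

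The shortest member measured 1001 bp (chr8:126002039-126003039). The isolated region just under the limit measured 999 bp (chr3:126395305-126396303). The least isolated member lay 100.215 kb from its neighbour (chr7:26465385-26466478). The long region just short of the distance limit had a gap of 99.9 kb (chr3:8664712-8665914). Gaps of members reached from there to 11271 kb, around a region at chr6:72186587-72187785 that was singled out after its value was seen. The median gap was 438 kb for the long and 519 kb for the short isolated regions.

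The 10 longest members spread over 5 chromosomes, and 5 of them lay in the distal part of chromosome 11. The longest member spanned 8620 bp at chr1:90169001-90177620 and stood at row 661 of the deposited list, with an IgG region 238 kb away. The second spanned 5059 bp at chr11:113542342-113547400 and stood at row 1043, with no IgG region within 1 Mb. The member of 2658 bp at chr11:121683909-121686566 stood at row 1310, close to the end of the list. These 3 members were thus not the first in the authors' order. The longest members as a set did not come late, however. The first 25% of the list held 5 of the 10 longest. It held 15 of the 31 members of 1500 bp or more, and 128 of all 354 members. The last 25% held 3, 7 and 58 members of these sets.

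On chromosome 11 the other members among the 10 longest followed each other at nearly even distances. They were chr11:109511779-109513783 (2005 bp), chr11:109855279-109857896 (2618 bp) and chr11:110196710-110200147 (3438 bp), with gaps of 341 kb and 339 kb between them. The nearest IgG region of all 3 was the same one, chr11:109940423-109940705 with a score of 69.21, at 427 kb, 82.5 kb and 256 kb. These 3 members therefore do not give 3 independent distances to IgG. They stood at rows 949, 80 and 331 of the deposited list.

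The remaining 4 of the 10 longest lay elsewhere. The region of 2476 bp at chr5:5253266-5255741 was 522 kb from an IgG region and stood at row 1113. On chromosome 6 a region of 2095 bp (chr6:84536939-84539033) was 212 kb from one and stood at row 295. On chromosome 2 a region of 2093 bp (chr2:144156474-144158566) stood at row 7, with its nearest IgG region 1295 kb away. The last of the 10 measured 1995 bp, at chr1:133423021-133425015, at row 114 and 685 kb from an IgG region. Over the 10 longest, rows ran from 7 to 1310 and IgG distances from 82.5 to 1295 kb, ranges that lay within those of the other members.

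The isolated long regions were spread unevenly over the chromosomes, and all 20 chromosomes with Ovol2 regions held some. Chromosome 5 held 41 long and 35 short isolated regions, a long share of 53.9% (95% interval 42.1 to 65.5%) against 34.9% of all isolated regions. Chromosome 8 held 27 long and 28 short ones (49.1%, 35.4 to 62.9%). Chromosomes 9 and 11 followed with 46.9% (32.5 to 61.7%) and 45.5% (34.1 to 57.2%). At the other end, chromosome 13 held 4 long and 41 short ones (8.89%, 2.48 to 21.2%), X held 3 and 21 (12.5%, 2.66 to 32.4%) and chromosome 7 held 11 and 46 (19.3%, 10.0 to 31.9%). The share over all isolated regions lay below the interval on 2 chromosomes (5 and 8), above it on 3 (7, 13 and X) and inside it on the other 15. Some of 20 such intervals miss by chance, and that lengths differ between chromosomes was already known when the members were chosen. Among all Ovol2 regions, most of them isolated, the long shares were similar. They were 53.2% on chromosome 5, 51.4% on 8, 43.8% on 9 and 51.5% on 11, against 35.7% of the list. On chromosomes 13, X and 7 they were 8.77%, 10% and 22.1%. Because most regions of the list are the isolated ones themselves, this likeness cannot show whether the unevenness was particular to isolated regions.

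**Figure D1:**
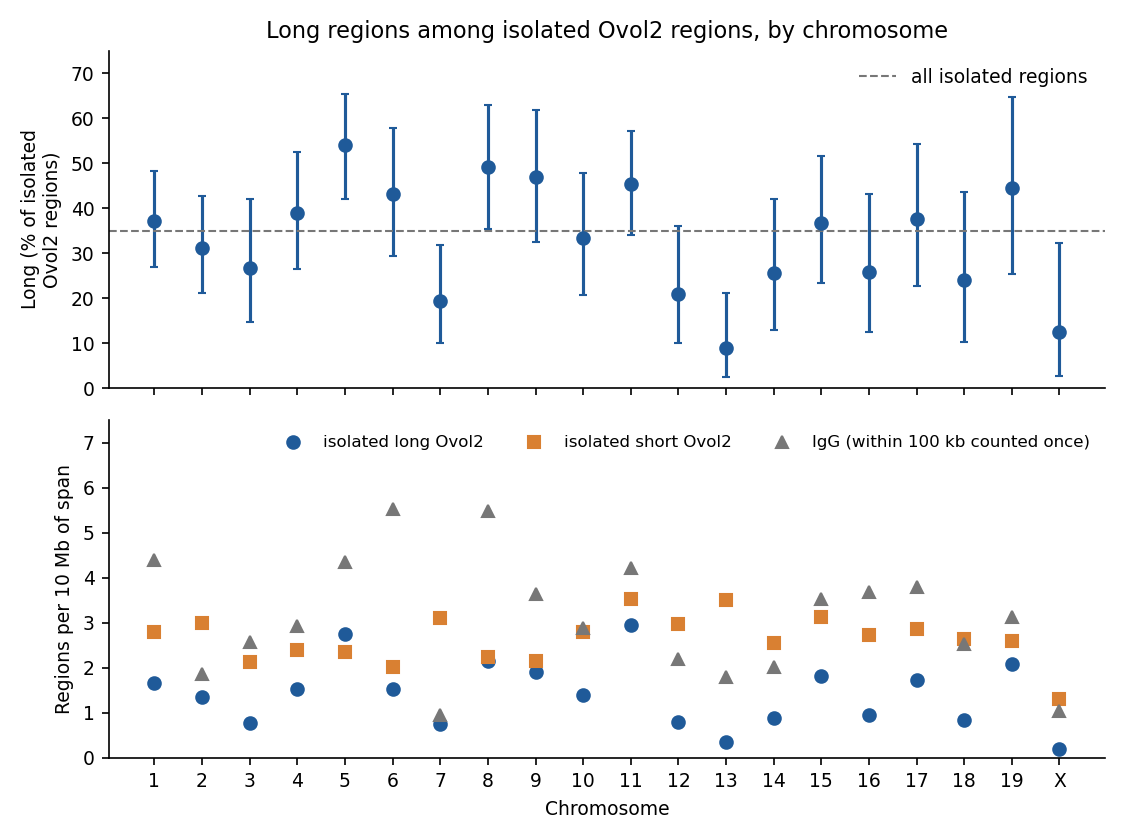
Upper panel: percent of the isolated Ovol2 regions of each chromosome that are long (points, with exact binomial 95% intervals), with the share over all isolated regions as a dashed line at 34.9%. Lower panel: isolated long regions (circles), isolated short regions (squares) and IgG regions, merged where less than 100 kb apart (triangles), per 10 Mb of span; the circles tend to be high where the triangles are high, and the squares do not.

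Long and short isolated regions differed in how their number per 10 Mb went with that of IgG regions. Density was taken over the span from the first to the last region of either list, and IgG regions less than 100 kb apart were merged into 1. Isolated long regions ranged from 0.185 per 10 Mb on X and 0.342 on chromosome 13 to 2.95 on chromosome 11. Isolated short regions ranged from 1.30 on X to 3.54 on chromosome 11, with 3.50 on chromosome 13. Chromosome 7, which had the lowest IgG density at 0.944 per 10 Mb, held 0.742 long and 3.10 short regions per 10 Mb. Chromosome 8, with 5.50 IgG regions per 10 Mb, held 2.15 long and 2.23 short ones.

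Across the 20 chromosomes, the density of long regions and that of IgG regions had a Spearman's rho of 0.79 and a Pearson's r of 0.73. For short regions the values were -0.23 and -0.098. Without X they were 0.76 and 0.68 for long and -0.40 and -0.43 for short regions. Without chromosomes 6 and 8, whose IgG densities were farthest from the median, they were 0.83 and 0.80 for long and -0.044 and 0.15 for short regions. These correlations are descriptions: the points share both libraries, the spans and the calling, chromosomes differ in base and gene content, and a relation between length and IgG density by chromosome was already known.

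Isolated long regions lay nearer to IgG regions than isolated short ones. Their median distance to the nearest IgG region was 787 kb, with quartiles of 308 and 1848 kb. For isolated short regions the median was 1279 kb, with quartiles of 468 and 2972 kb, and over all Ovol2 regions it was 1065 kb. The distributions overlapped over most of their range, from 0 to 18167 kb for long and from 0 to 22546 kb for short regions. The classes thus shared nearly the whole range and differed in all 3 quartiles.

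An IgG region within 100 kb was found for 43 of the 354 long regions (12.1%, 95% interval 8.93 to 16.0%) and for 41 of the 660 short ones, or 6.21% (4.49 to 8.33%). Over all Ovol2 regions the share was 8.67%. Within 1 Mb the counts were 202 long regions, or 57.1% (51.7 to 62.3%), and 287 short ones, or 43.5% (39.7 to 47.4%), against 48.6% of the list. No IgG region within 5 Mb was found for 22 long regions, or 6.21% (3.94 to 9.26%), and for 91 short ones, or 13.8% (11.2 to 16.7%), against 11.1% of the list. With the full IgG list, the intervals of long and short regions did not overlap at these 3 distances. The 43 long regions within 100 kb lay on 15 chromosomes and had 42 different IgG regions as their nearest. The 41 short regions lay on 16 chromosomes and had 40. The gap limit of the rule leaves little room for isolated regions to share an IgG region within 100 kb. Different IgG regions can also lie close together. These counts therefore cannot show whether the shares rest on crowded places.

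When only part of the IgG list was used, the intervals of the classes at 100 kb overlapped. With the 522 IgG regions above the median score, the shares within 100 kb were 5.37% of long (19 regions, 95% interval 3.26 to 8.25%) and 1.97% of short regions (13 regions, 1.05 to 3.34%), against 3.29% of all Ovol2 regions. With the 523 IgG regions at or below the median score, a set added after seeing the data, they were 7.34% (26 regions, 4.85 to 10.6%) and 4.70% (31 regions, 3.21 to 6.60%), against 5.75% of all. The difference was 5.93 percentage points with the full list and 3.40 and 2.65 points with these parts, and both pairs of intervals overlapped. Fewer IgG regions lower the shares of both classes, so these differences cannot show whether the contrast itself was weaker with either part. The long share remained the higher one in both.

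**Figure D2:**
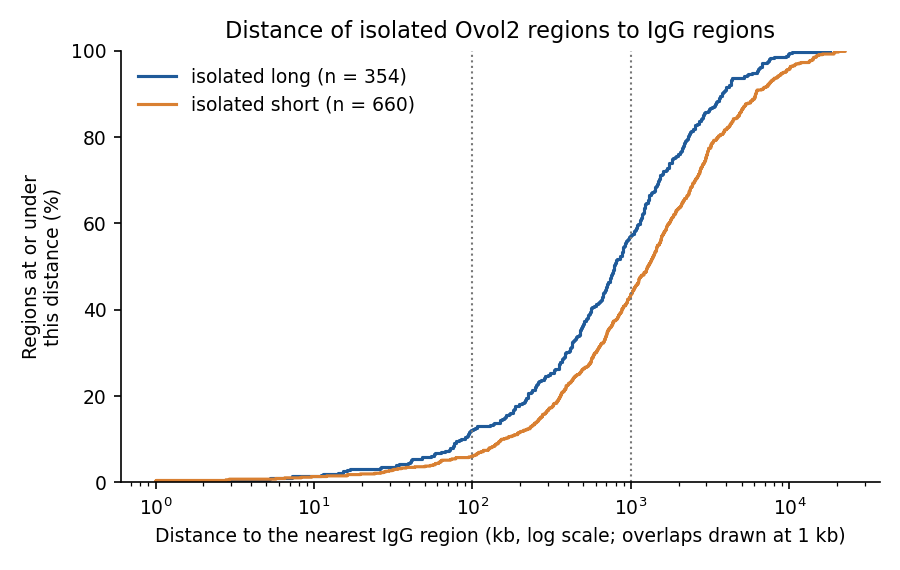
Cumulative percent of isolated long (n = 354) and isolated short (n = 660) Ovol2 regions by distance to the nearest IgG region in kb, on a log axis with overlaps drawn at 1 kb and dotted lines at 100 kb and 1 Mb. The curves run together up to about 10 kb, and beyond that the curve of long regions lies above that of short ones, at 12.1% against 6.21% at 100 kb and 57.1% against 43.5% at 1 Mb.

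At close range the counts were too few to tell the classes apart. Only 1 long region (0.282%, exact binomial 95% interval 0.00715 to 1.56%) and 2 short regions (0.303%, 0.0367 to 1.09%) overlapped an IgG region, against 0.448% of the list. Within 10 kb there were 5 long regions (1.41%, 0.460 to 3.27%) and 9 short ones (1.36%, 0.625 to 2.57%), against 1.64% of the list. Whether the IgG library was used as a control when the Ovol2 regions were called is not given in the sources used here, and what such a use would do to these counts was not tested.

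The 5 members nearest to an IgG region measured between 1030 and 1241 bp, against a median of 1137.5 bp for all members. The member chr5:147071973-147073213 (1241 bp) overlapped a 396 bp IgG region scored 481.73, and 5 IgG regions lay within 1 Mb of it. The others were chr2:131088275-131089329, at 2.80 kb, and chr6:85540010-85541056, at 5.21 kb. They were followed by chr17:62634956-62635985, at 5.29 kb, and chr5:20769047-20770190, at 7.30 kb. These 4 measured between 1030 and 1144 bp, and their nearest IgG regions had scores of 50.01 to 69.99, in a list whose median score was 60 and whose highest was 3100.

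The 5 members farthest from an IgG region measured between 1018 and 1100 bp. The member chrX:54645059-54646104 was 18167 kb from the nearest IgG region. The member chr7:134591862-134592930 was 10425 kb away. On chromosome 2, chr2:112105434-112106533 and chr2:108076131-108077199 were 9984 kb and 9569 kb away, and chr4:136913297-136914314 was 9800 kb away. Among the members, length and IgG distance were hardly related (Spearman's rho = -0.094, Pearson's r = -0.088 over 354 regions of 1 library, given as a description).

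The number of IgG regions around a region showed the same order. A mean of 1.04 IgG regions lay within 1 Mb of a long region and 0.723 within 1 Mb of a short one, against 0.839 over the list, with medians of 1 and 0. At least 3 IgG regions within 1 Mb were counted for 33 long (9.32%, 95% interval 6.50 to 12.8%) and 37 short regions (5.61%, 3.98 to 7.64%), against 7.25% of the list, and here the intervals overlapped. The IgG region nearest to a long region had a median score of 58.3 and a median length of 122.5 bp. For short regions these medians were 59.4 and 123 bp, values that lay close together.

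Long regions with a close Ovol2 neighbour had a median IgG distance close to that of isolated long regions. The 123 of them had a median distance of 762 kb, and 12.2% had an IgG region within 100 kb (95% interval 6.99 to 19.3%). The 201 short regions with a close neighbour had a median of 1375 kb and a share of 8.46% (5.00 to 13.2%), and the share over the list was 8.67%. The intervals of these 2 shares overlapped. By the medians, long regions were the nearer ones both with and without a close Ovol2 neighbour.

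Split by finer steps of length, the nearness to IgG showed no gradient among the short regions. Of isolated regions under 600 bp, 5.30% had an IgG region within 100 kb (7 of 132, 95% interval 2.16 to 10.6%), against 8.67% of the list. From 600 to under 800 bp the share was 6.52% (15 of 230, 3.70 to 10.5%), and from 800 to under 1000 bp it was 6.38% (19 of 298, 3.88 to 9.78%). Among members it was 12.3% under 1200 bp (29 of 235, 8.42 to 17.2%), 10.2% from 1200 to under 1500 bp (9 of 88, 4.78 to 18.5%) and 16.1% at 1500 bp or more (5 of 31, 5.45 to 33.7%). Median distances were 1316, 1247 and 1293 kb below the limit and 807, 757 and 427 kb above it. Thus the values below 1000 bp lay close together, while those above had wide intervals that overlapped each other and those below.

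**Figure D3:**
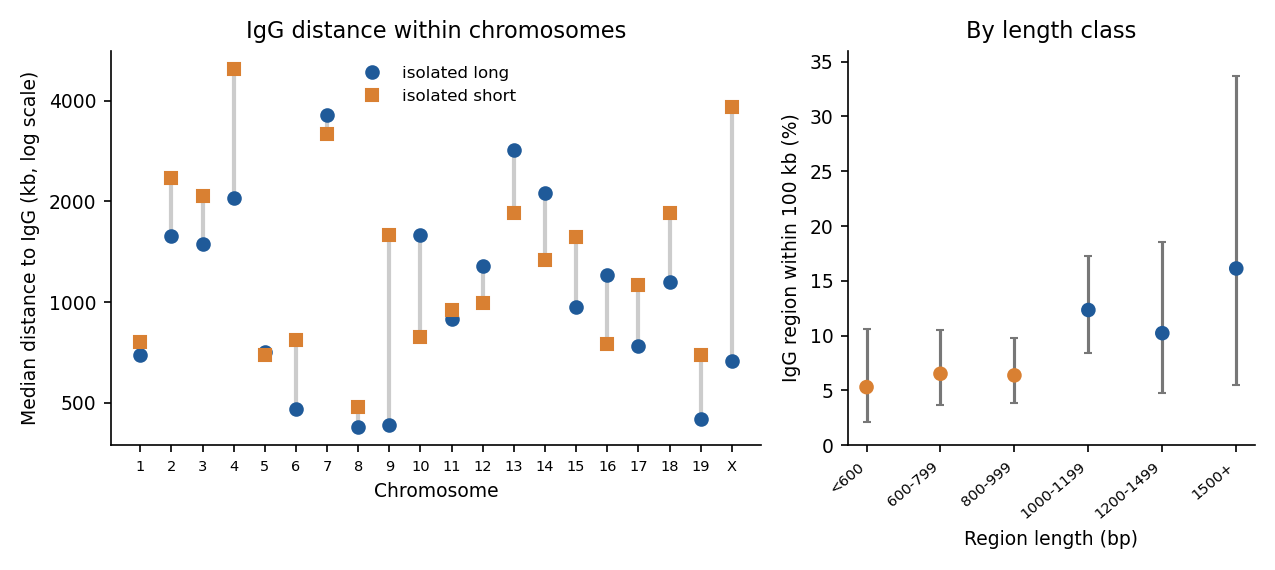
Left: median distance to the nearest IgG region in kb (log axis) of isolated long (circles) and isolated short (squares) Ovol2 regions on each chromosome; the circle lies lower on 13 of 20 chromosomes. Right: percent of isolated Ovol2 regions with an IgG region within 100 kb by length class in bp, with exact binomial 95% intervals; the 3 classes under 1000 bp lie between 5.30% and 6.52% and the 3 classes above between 10.2% and 16.1%.

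Because long regions were frequent where IgG regions were frequent, distances were also compared within chromosomes. Long regions had the smaller median distance on 13 of the 20 chromosomes and the larger on 7. The median of the 20 differences was -157 kb, against -492 kb when chromosomes were pooled. These are unlike measures, because the first counts every chromosome equally, also X with 3 members and chromosome 13 with 4. Their ratio therefore does not measure how much of the difference lies between chromosomes. Chromosome 9 showed one of the larger gaps, with a median of 430 kb for 23 long and 1588 kb for 26 short regions. On chromosome 4 the medians were 2046 kb (23 long) and 4990 kb (36 short). On chromosome 5, which held the most members, they were 709 and 695 kb, and on chromosome 10 the long regions were farther, at 1586 against 787 kb.

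Shares were also compared after weighting the short regions to the chromosomes of the long ones. Within 100 kb this gave 6.75% of short regions in place of 6.21%, against 12.1% of long ones. Within 1 Mb it gave 47.6% in place of 43.5%, against 57.1% of long ones. By chromosome, the long share within 100 kb was higher on 12 chromosomes, lower on 7 and equal on 1. On chromosome 5, 6 of 41 long and 0 of 35 short regions had an IgG region within 100 kb. By a rough limit of 3 counts, a count of 0 there allows a share of up to 8.57%. On chromosome 16 the order was the opposite, with 0 of 9 long regions, which allows up to 33.3%, and 4 of 26 short ones. With few regions per chromosome, these counts only show that the order was not uniform.

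In the deposited order, which is not by position and whose meaning is not given in the sources used here, long regions came early. Their median row was 523.5 of 1338, against 763.5 for isolated short regions and 669.5 for the list. The first 25% of the list held 128 members (36.2%, 95% interval 31.1 to 41.4%) and 120 short regions (18.2%, 15.3 to 21.3%), against 25% of the list by construction. The last 25% held 58 members (16.4%, 12.7 to 20.7%) and 204 short ones (30.9%, 27.4 to 34.6%). That length falls along the order was already known, and these values restate it for isolated regions. The 123 long regions with a close Ovol2 neighbour also came early, with a median row of 500. The first 25% of the list held 49 of them (39.8%, 31.1 to 49.1%), so coming early was not particular to isolated long regions.

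The first 10% of the list held 55 members (15.5% of them, 95% interval 11.9 to 19.7%, against 9.94% of the list) and the last 10% held 24. In steps of 10% of the list, the long share of isolated regions was 55.6% in the first step (55 of 99, 95% interval 45.2 to 65.5%) and 22.4% in the last (24 of 107, 14.9 to 31.5%), with the lowest value, 17.6%, in the ninth. Long regions came earlier, by their medians, on 17 of the 20 chromosomes. The members that came first stood at rows 5, 6, 7, 11 and 13. They were chr8:114166638-114168411 (1774 bp), chr8:72314411-72315751 (1341 bp), the region of 2093 bp on chromosome 2 given above, chr18:5591573-5592811 (1239 bp) and chr3:115376370-115377508 (1139 bp). Their lengths thus ran from 1139 to 2093 bp.

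The last members stood at rows 1320, 1325, 1326, 1327 and 1336. They were chr1:132798650-132799744, chr9:24306351-24307418, chr5:140532822-140533907, chr19:38059958-38060962 and chr5:3501148-3502323. They measured 1005 to 1176 bp and were 39.0 to 1310 kb from an IgG region. The one on chromosome 9 lay 39.0 kb from an IgG region with a score of 1302, the highest score next to any member within 100 kb. Among the members alone, length and row were weakly related (Spearman's rho = -0.097, Pearson's r = 0.013 over 354 regions), whereas among the short regions rho was -0.24 and r was -0.23.

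**Figure D4:**
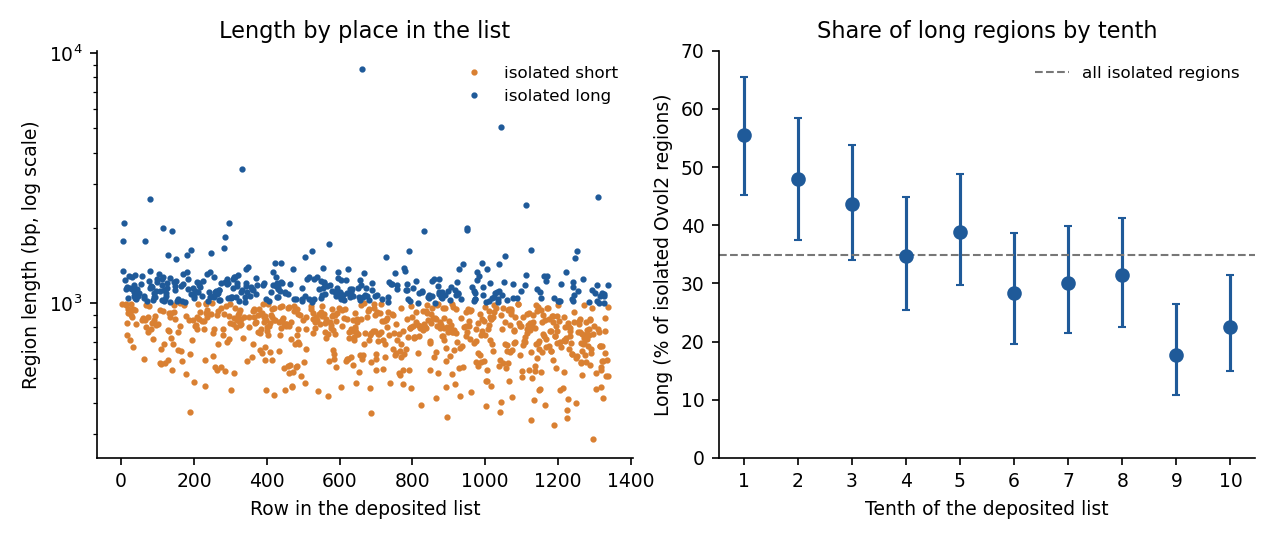
Left: length in bp (log axis) of each isolated long and isolated short Ovol2 region against its row in the deposited list. Right: percent of isolated regions that are long in each 10% of the list, with exact binomial 95% intervals and the share over all isolated regions dashed; the share falls from 55.6% at the start to 22.4% at the end, while the longest members, up to 8620 bp, are scattered over the rows.

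Place in the order and nearness to IgG were hardly related. Among the members, row and IgG distance had a Spearman's rho of -0.061 and a Pearson's r of -0.055. Within each 25% of the list the long regions had the smaller median distance to IgG. The medians were 930 kb for long and 1183 kb for short regions in the first 25% of rows, and 725 and 1446 kb in the second. They were 926 and 1133 kb in the third and 589 and 1265 kb in the fourth. Weighting the short regions to these 4 parts of the list as the long ones fill them gave a share within 100 kb of 6.02%, close to the unweighted 6.21%.

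Along the chromosomes, long and short isolated regions had similar positions. Position was expressed as a percent of the span of both lists, counted from the low-coordinate end, which in mouse chromosomes is the end next to the centromere. The median was 56.3% for long, 56.6% for short and 55.7% for all Ovol2 regions. The lower 50% of the span held 158 long regions (44.6%, 95% interval 39.4 to 49.98%) and 291 short ones (44.1%, 40.3 to 48.0%), against 46% of the list. The first 10% of the span held 29 long (8.19%, 5.55 to 11.6%) and 47 short regions (7.12%, 5.28 to 9.36%), against 8.45% of the list.

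The last 10% of the span held 52 long regions (14.7%, 95% interval 11.2 to 18.8%) and 74 short ones (11.2%, 8.91 to 13.9%), against 13.6% of the list. Of the isolated regions there, 41.3% were long (32.6 to 50.4%), against 34.0% in the rest of the span (30.9 to 37.2%). Chromosome 11 gave 9 of these 52 members, with 9 of its 11 isolated regions in the last 10% being long (81.8%, 48.2 to 97.7%), against 26 of 66 in the rest of that chromosome (39.4%, 27.6 to 52.2%). Without chromosome 11 the shares were 37.4% (28.5 to 46.9%) in the last 10% and 33.6% (30.4 to 36.9%) before it. Chromosome 11 held 35 members in all, or 9.89% of them (6.98 to 13.5%), against 7.55% of the list.

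**Figure D5:**
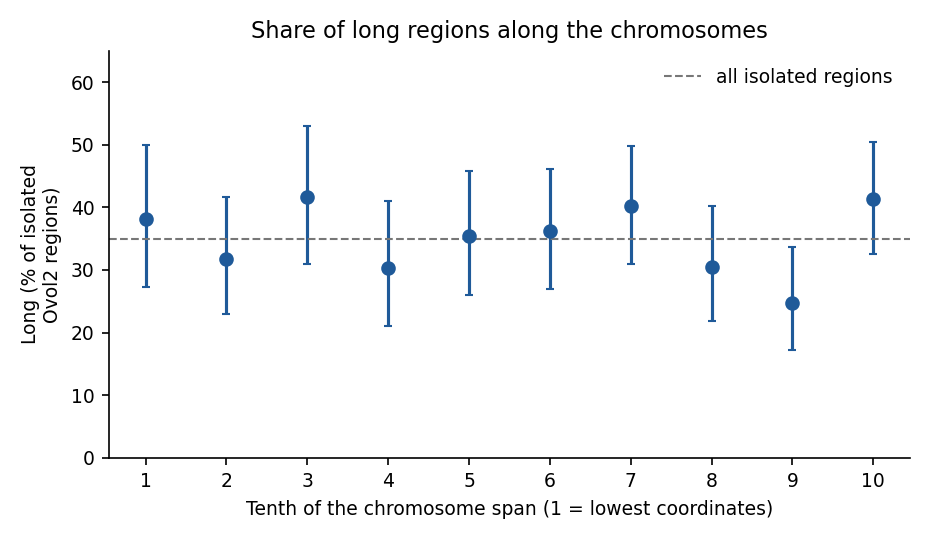
Percent of isolated Ovol2 regions that are long in each 10% of the chromosome span, taken over all chromosomes and counted from the low-coordinate end, with exact binomial 95% intervals; the dashed line is the share over all isolated regions (34.9%). The values run from 24.8% in the ninth step to 41.7% in the third, with no steady trend.

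The nearest Ovol2 neighbour of an isolated long region was itself at least 1000 bp long in 133 of 354 cases, or 37.6% (95% interval 32.5 to 42.8%). For isolated short regions this was so in 220 of 660 cases, or 33.3% (29.7 to 37.1%), against 35.5% of the list. The nearest neighbour was an isolated long region for 110 members and an isolated short one for 187. In 37 pairs, 2 members were each other's nearest neighbour. Long regions were thus found next to long ones about as often as the make-up of the list gives, and these intervals overlapped.

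By the point values, the order of long and short regions was the same in all 4 classes of gap. Members with a gap of 100 to 200 kb (77 regions) had an IgG region within 100 kb in 15.6% of cases (95% interval 8.32 to 25.6%), and those with a gap of 1000 kb or more (88 regions) in 11.4% (5.59 to 19.9%). The values for short regions were 7.44% (121 regions, 3.46 to 13.7%) and 5.5% (200 regions, 2.78 to 9.63%), against 8.67% of the list. In all 4 classes of gap the long regions had the higher share and the smaller median distance. At gaps of 1000 kb or more the medians were closest in ratio, at 1245 kb for long and 1429 kb for short regions.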

How the data were processed

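The authors deposited 1 region list per antibody, in mm9 per the submitters' processing notes, which name Bowtie 0.12.8, SAMtools 0.1.18 and bedtools 2.15.0 with no role. The Ovol2 list has 3 columns, the chromosome, start and end. Its file name mentions FDR5, but no caller, cut-off or control for it is given in the sources used here. The IgG list, whose regions are named as MACS peaks, also has a score deposited by the authors, from 50.01 to 3100 on a scale that no header names. Calling settings that differed between the lists would alter lengths and distances. Libraries had 16 PCR cycles, per the labels' protocols.

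Gaps and distances were computed edge to edge (0 for an overlap) with code tested on simulated data, in Python 3.11.15 with numpy 2.4.6, pandas 2.3.3, scipy 1.17.1 and matplotlib 3.10.9. Compared proportions carry Clopper-Pearson 95% intervals, apart from weighted shares and shares of the whole list. Counts within 100 kb on single chromosomes carry none, and for a count of 0 a rough upper limit of 3 counts is given. The named regions are the 10 longest members, the 5 nearest to and 5 farthest from IgG, the first and last 5 in the deposited order, and those next to each limit. The members, comparisons and alternatives were chosen with earlier results of these data known. The reference tables are in GRCm38 and were not set against mm9 coordinates.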

Additional observations from a re-analysis of the deposited data

How the results depend on the processing

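No paired analysis was possible because each antibody has 1 library, and for the same reason no replicate could be left out. The following alternatives were chosen after seeing the data: weighting the short regions, using only IgG regions at or below the median score, and leaving out the last 10% of chromosome 11. The direction of the differences in IgG distance, in the share within 100 kb and in place in the order was kept under every alternative run on each. Among these, merging IgG regions less than 100 kb apart is no check on the share within 100 kb, which it cannot change. It also left the difference in median distance at -492 kb. The share within 100 kb stayed 2.65 to 6.13 percentage points higher for long regions (14 alternatives, 5.93 as reported). The smallest differences, 3.40 and 2.65, came from the IgG regions above and at or below the median score. With these parts of the IgG list the shares of both classes were lower too, and their intervals overlapped. The place in the order stayed 15.9 to 19.7 percentage points of the list earlier (values of -15.9 to -19.7). The difference in median IgG distance (-492 kb) moved beyond its interval in 5 of 17 alternatives. It was -157 kb as the median of differences within chromosomes, -252, -721 and -208 kb in rows of the first 3 steps of 25% of the deposited order, and -1124 kb with IgG regions at or below the median score. The mean number of IgG regions within 1 Mb, 0.31 higher for long regions as reported, was 0.11 higher with the 522 IgG regions above the median score and 0.21 higher with the 523 at or below it. A length minimum of 1200 bp left 119 members and an overall long share of 11.7%, in place of 34.9%. The long share of chromosome 5 was then 6.69 percentage points above the overall share, from 19.04, since all shares were lower. On chromosome 13, whose longest member measured 1141 bp, no member was left. Its difference of -11.7 points, from -26.02, was thus the lowest possible and does not show a smaller deficit. The difference in position changed sign in 2 of 10 alternatives and lay between -1.16 and 0.47 percentage points. The cause of the other changes was not tested. The unknown depth limits what can be said of places without a called region.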
